A study of Homo sapiens with 4 samples.

Results

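The interferon-stimulated genes and the RNA sensors that can set them off were examined in HCCLM3, an established human hepatocellular carcinoma cell line, after 4 days with small RNA reagents. The set is a fixed list of 38 genes out of 19775 genes with a probe set that carries 1 gene symbol. Each gene was read by its brightest such probe set, judged by the mean of its log2 signals. Of the 38, 37 were measured and STAT2, the partner of IRF9 in the main interferon-activated transcription factor, was not analysed here. A gene passed the filter when its mean log2 signal reached the median of all non-control probe sets, a signal of 52.9, which is called the floor below. With this filter 27 members and 13180 genes in all passed. The lists and members were not drawn up blind to these arrays.

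There were 4 groups of 1 Affymetrix Human U133 Plus 2.0 array each. EpCAM-negative cells, separated by magnetic sorting, were transfected with 100 nM miR-429 mimic or 100 nM NC mimic, and EpCAM-positive cells were given 40 µM antagomir-429 or 40 µM NC antagomir. A mimic is a double-stranded RNA brought in with a transfection reagent, and an antagomir is a cholesterol-conjugated antisense RNA added to the medium. Every array therefore comes from cells that had received a small RNA, no array of untreated cells was analysed here, and the sorted fraction cannot be told apart from the kind of reagent. With 1 array per group there is no replicate, no test and no error of a difference, so precision is limited by how few arrays there are. As a yardstick, the robust SD of the log2 ratios of all genes in the same of 4 equal brightness classes is given, which covers the scatter between genes and not between cultures. In the dimmest class it was 0.82 for miR-429 mimic over NC mimic and 0.79 for antagomir-429 over NC antagomir. In the brightest class it was 0.36 and 0.15. EPCAM itself, the gene of the sort, read 3838 under miR-429 mimic against 1106 under NC mimic, and 913 under antagomir-429 against 1235 under NC antagomir. The highest EPCAM signal was thus on an array of cells sorted as EpCAM-negative, and the control arrays of the fractions differed in it by a log2 ratio of 0.16.

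Cells detect foreign double-stranded RNA with the cytosolic helicases RIG-I (RIGI) and MDA5 (IFIH1) and with TLR3 in endosomes. These sensors lead to secretion of type I and type III interferons, which bind their receptors and bring a complex of STAT proteins and IRF9 to a DNA element, the interferon-stimulated response element, upstream of many antiviral genes. Transfected RNA duplexes can trigger this route in some cells, and many of the sensors are themselves induced by interferon.

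The reagent of the series is modelled on the following mature microRNA, shown with its seed, bases 2 to 8, in capitals. It comes from RefSeq, GRCh38.p14, at chr1:1169055-1169076 on the plus strand. The sequences of the reagents themselves were not used here.
hsa-miR-429: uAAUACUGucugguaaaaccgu

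The promoter table of RefSeq, GRCh38.p14, gives 250 bases before and 50 after each annotated start and matched 31 of the 38 members. The core of the interferon-stimulated response element, TTTC and TTTC separated by any pair of bases, was searched on both strands, so that GAAA and GAAA with the same spacing also counts. It lay in at least 1 window of 22 of the 31 members, 71.0%, against 4.38% of the 27305 genes in the table. It was found in 15 of 22 members that passed the filter and in 7 of 8 that were measured but did not pass, so its letters were common on both sides of the floor. The gamma-activated site core TTCNNNGAA, which is its own reverse complement, lay in windows of 11 members, 35.5%, against 9.38% of all genes, and some windows hold both motifs, overlapping in part. A match of letters describes a window and is not a measured binding site.

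Stretches of 6 promoters are shown because their genes fell on either side of the floor while sharing the element. The first 4 genes passed the filter and the other 2 did not. Capitals mark the response element core, all of them upstream of the start, and neighbouring matches can overlap. The ISG15 stretch is chr1:1013344-1013443 on the plus strand and BST2 is chr19:17405701-17405800 on the minus strand. IFI6 is chr1:27672236-27672388 on the minus strand and IFIT1 is chr10:89392467-89392569 on the plus strand. IFI44L is chr1:78620244-78620424 on the plus strand and IFIH1 is chr2:162318685-162318883 on the minus strand, all in GRCh38.p14.
ISG15: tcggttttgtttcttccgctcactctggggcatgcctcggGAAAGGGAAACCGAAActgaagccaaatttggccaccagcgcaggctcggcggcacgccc
BST2: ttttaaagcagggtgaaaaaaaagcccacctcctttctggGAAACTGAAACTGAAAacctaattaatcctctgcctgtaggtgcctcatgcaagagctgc
IFI6: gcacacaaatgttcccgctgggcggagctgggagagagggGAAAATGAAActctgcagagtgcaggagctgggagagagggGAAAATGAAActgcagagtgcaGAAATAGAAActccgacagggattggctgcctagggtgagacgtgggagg
IFIT1: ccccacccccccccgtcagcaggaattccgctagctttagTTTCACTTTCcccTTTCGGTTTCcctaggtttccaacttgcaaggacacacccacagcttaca
IFI44L: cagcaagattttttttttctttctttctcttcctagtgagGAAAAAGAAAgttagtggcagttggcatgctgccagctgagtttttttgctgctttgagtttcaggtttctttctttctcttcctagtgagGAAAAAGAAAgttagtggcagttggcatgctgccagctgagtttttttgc
IFIH1: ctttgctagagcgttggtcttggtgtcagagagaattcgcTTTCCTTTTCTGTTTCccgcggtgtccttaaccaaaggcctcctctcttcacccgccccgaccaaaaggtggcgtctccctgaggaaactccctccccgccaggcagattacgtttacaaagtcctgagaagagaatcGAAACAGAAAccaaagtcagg
ISG15 and BST2 each hold a pair of overlapping matches, IFIT1 a pair set apart by 3 bases, IFI44L a pair in a repeated stretch, and IFI6 and IFIH1 hold 3 each.

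Counts of members at or above the floor were between 27 and 30 on the 4 arrays. By the brightest probe set, 25 of 37 measured members were at or above the floor on all 4 arrays and 6 were under it on all 4: IFIH1, DHX58, DDX60, IFI44, IFI44L and SAMD9. The number at or above the floor was 27 under miR-429 mimic, 27 under NC mimic, 30 on the antagomir-429 array and 27 on the NC antagomir array. Of all non-control probe sets, 55.9%, 55.5%, 54.2% and 54.7% reached the floor on these arrays, in the same order. The antagomir-429 array thus had the most members and the lowest share of all probe sets. MX1 and MX2 reached the floor on that array alone. Of the 27 members that passed the filter, 22 lay within 2-fold over all 4 arrays, and all 5 others were in the dimmest class: RIGI, IFIT1, IFIT2, IFIT3 and OAS2. In that class 40.0% of all genes stayed within 2-fold, and in the brightest 98.1% did.

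**Figure D1:**
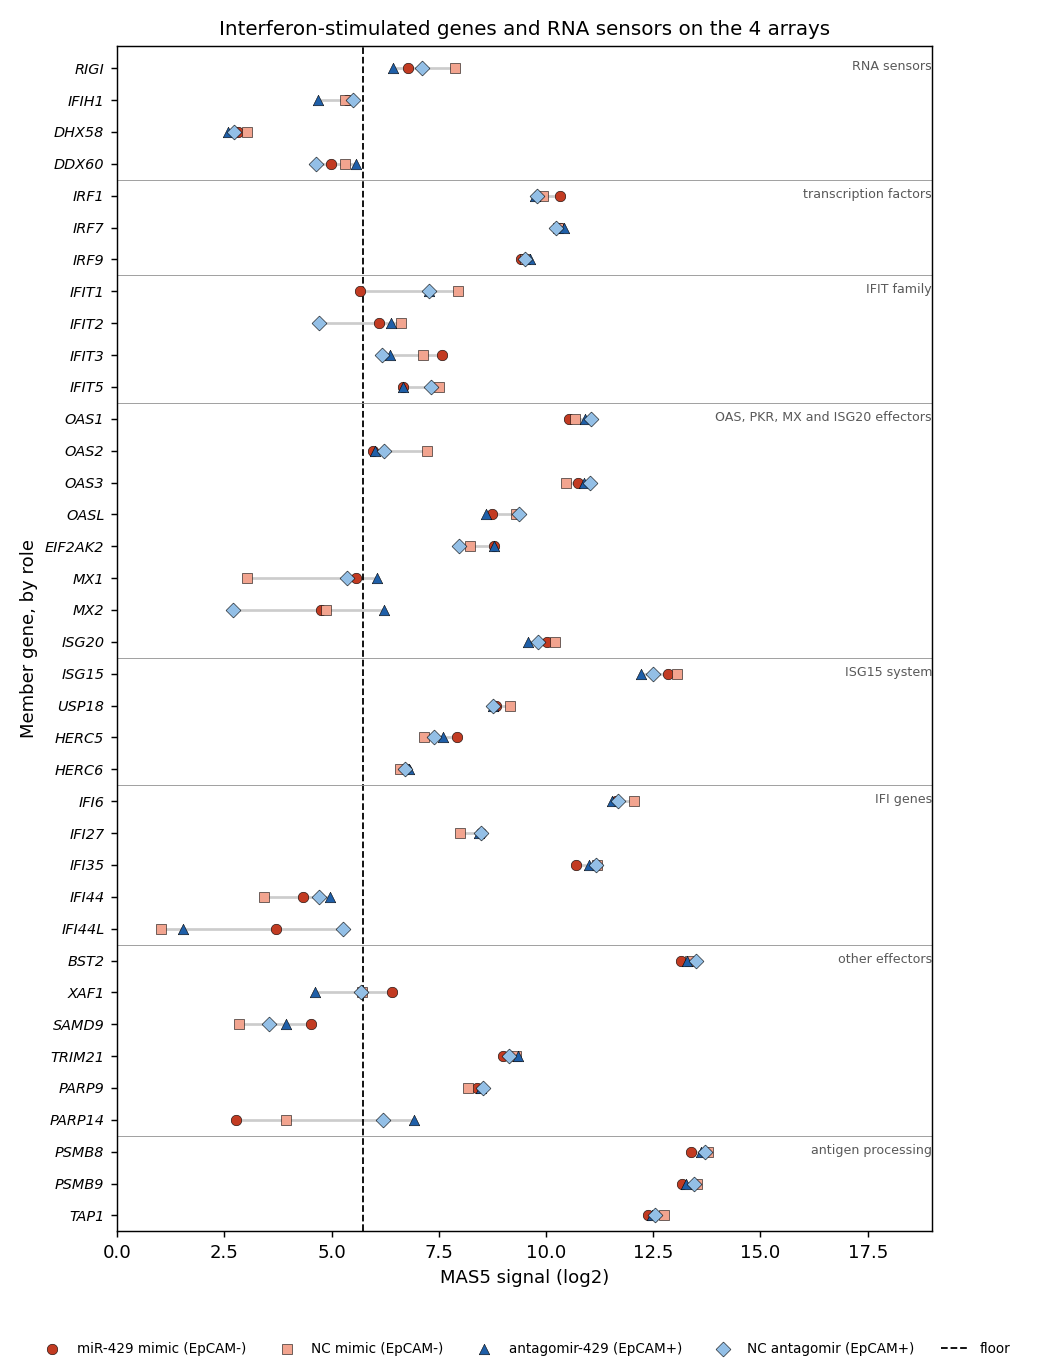
MAS5 signal (log2, x axis) of the 37 measured members (y axis, by role), with 1 point per array and the dashed line at the floor, a log2 signal of 5.73. The points of genes well to the right of the line lie close together, the widest spreads belong to genes near or under it, and positions of different genes are not comparable because each has its own probes.

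The array on which a member was brightest was the NC mimic array more often than any other, for 13 of the 27 members. Over all genes that passed the filter that array was highest for 29.6%. The miR-429 mimic array was highest for 5 members against 28.6% of all genes, antagomir-429 for 4 against 22.3%, and the NC antagomir array for 5 against 19.6%. After subtraction of each gene's own mean over the arrays, the members' median was -0.09 for miR-429 mimic and 0.17 for NC mimic, against 0.02 and 0.03 for all genes. It was -0.01 on the antagomir-429 array and 0.00 on the NC antagomir array, against 0.02 and 0.01 for all genes. The array with the highest members was thus that of the control duplex.

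For miR-429 mimic over NC mimic, the members' median log2 ratio was -0.21, against 0.00 for all genes that passed the filter. Of the 27 members, 18 were below 0, where 50.1% of all genes were. By the ratio of the deposited signals, 0 were at least 2-fold higher, where 5.25% of all genes were, and 3 were at least 2-fold lower (IFIT1, OAS2 and RIGI), where 3.76% of all genes were. With the NC antagomir array as the control instead, 2 were higher (IFIT3 at 1.40 and IFIT2 at 1.38) and 1 lower (IFIT1 at -1.60), while RIGI was at -0.32 and OAS2 at -0.27. In that comparison the sorted fraction differs too, and the share of all genes past 2-fold was not computed. With antagomir-429 over the NC antagomir, the members' median was -0.08 against 0.01 for all genes, and 17 of 27 were below 0, where 49.0% of all genes were. There the signals of 1 member differed by over 2-fold upward (IFIT2, at least 1.59-fold when its control is set to the floor), where 3.72% of all genes did so, and 0 were at least 2-fold lower, where 3.53% were. All 4 members past 2-fold in any comparison lay in the dimmest class, where 24.9% of all genes were past 2-fold for the mimic and 24.2% for the antagomir. In all, 13 of 27 members were below 0 in both comparisons, which share no array, where 27.0% of all genes were.

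**Figure D2:**
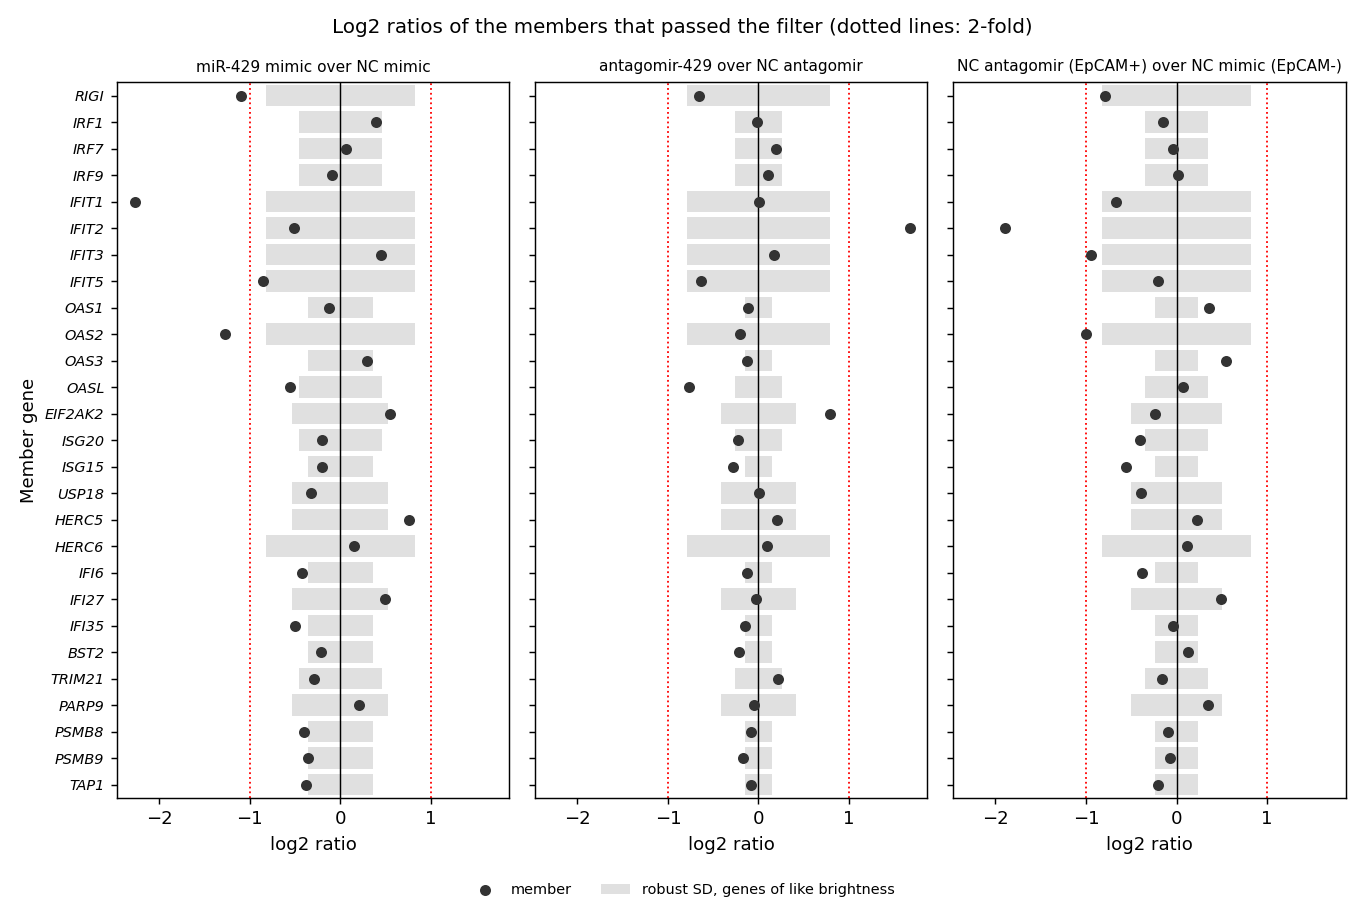
Log2 ratio (x axis) of the 27 members that passed the filter (y axis) in the 3 comparisons, 1 point per gene, with the robust SD of all genes in the same brightness class as a grey bar around 0 and dotted lines at 2-fold. IFIT1 at -2.27 with the miR-429 mimic and IFIT2 at 1.67 with antagomir-429 are the farthest from 0 in their panels.

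The brighter members with the mimic lay near genes like them. In the brightest class, 8 of 9 members were below 0 (OAS1, ISG15, IFI6, IFI35, BST2, PSMB8, PSMB9 and TAP1, with OAS3 above), where 59.5% of all genes were, and the largest ratio had a size of 0.50. With the antagomir all 9 were below 0, where 52.1% of all genes were, with a median of -0.13 against -0.01. The largest of these ratios had a size of 0.28, beside a robust SD of 0.15. On these arrays the log2 ratio with the mimic moved with the length of the gene on the genome: its median was -0.19 in the shortest of 5 equal span classes (median span 4.1 kb) and 0.22 in the longest (147.5 kb). The members that passed were short, with a median span of 10.8 kb against 26.9 kb for all genes. Taken relative to the median of genes of like brightness and span, in classes of 78 to 460 genes, the members' median was -0.07 with the mimic, with 15 of 27 below 0, in place of -0.21 with 18 below 0. The same step gave -0.07 with the antagomir, with 19 of 27 below 0. The part of length in any single member's ratio was not tested.

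**Figure D3:**
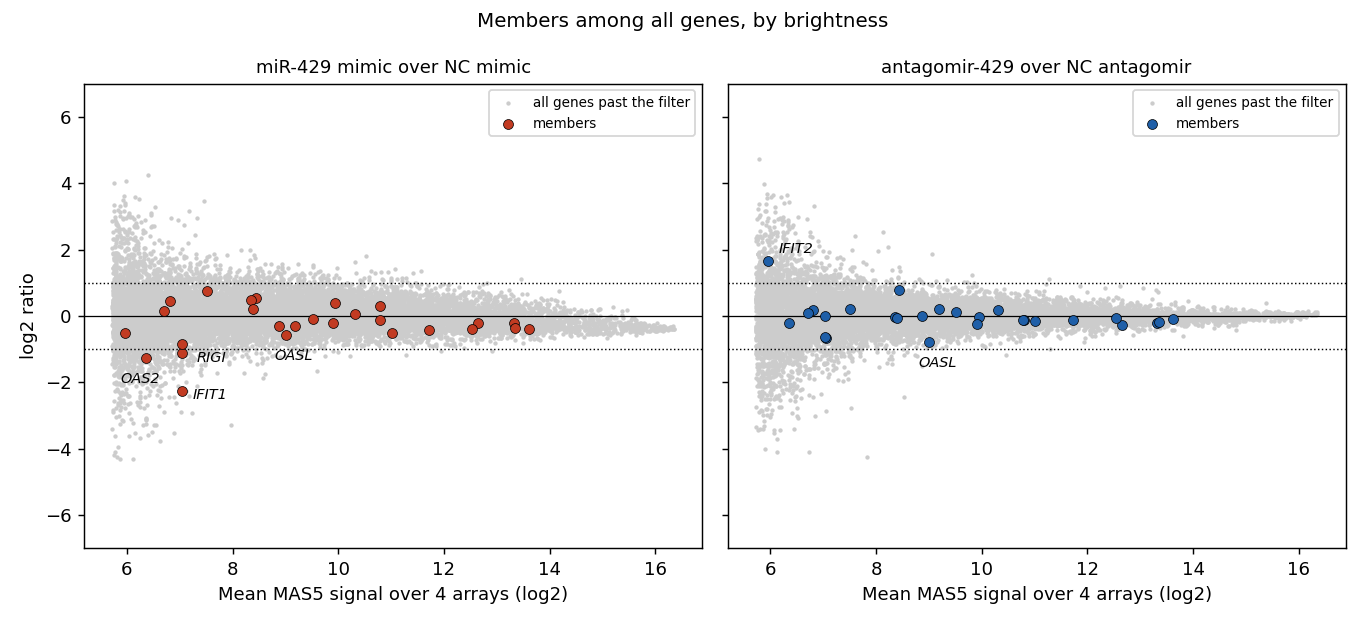
Log2 ratio (y axis) against mean log2 signal over the 4 arrays (x axis) for all 13180 genes past the filter in grey and the 27 members in colour, with the miR-429 mimic on the left and antagomir-429 on the right. The scatter narrows to the right, the bright members lie close to 0, and IFIT1, OAS2, RIGI and IFIT2 lie past the 2-fold lines at low brightness, while OASL lies lower than most genes of its brightness with antagomir-429.

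Of the 4 cytosolic helicases in the set, RIGI, which recognises RNA with a 5′ triphosphate, was the only one at or above the floor by its brightest probe set. Its signal was 110 under miR-429 mimic against 237 under NC mimic, and 86.7 under antagomir-429 against 137 under NC antagomir. The NC mimic array was the highest of the 4, and the log2 ratio was -1.10 for the mimic and -0.66 for the antagomir. That reading rests on 1 probe set whose name ends in _x_at, the manufacturer's mark for probes that can bind other transcripts. The remaining RIGI probe sets were under the filter. The brighter of them read 79.1 under miR-429 mimic against 42.5 under NC mimic, which is under the floor. It read 111 under antagomir-429 and was under the floor under NC antagomir, with a log2 ratio of 3.35. The brighter set thus did not share the direction of the _x_at set with the mimic or with the antagomir. The other was under the floor on all arrays.

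The other helicases were dim on every array. By its brightest probe set IFIH1, which binds long double-stranded RNA, read 41.3 under miR-429 mimic against 39.7 under NC mimic. On the antagomir arrays that set read 25.8 under antagomir-429 against 45.3 under NC antagomir. Another IFIH1 set read 49.6 against 4.56 and 36.2 against 5.76 in the same order, higher on both reagent arrays. A further set was lower on both, with log2 ratios of -0.65 and -1.06. All IFIH1 sets were under the floor on every array. DHX58, or LGP2, a regulator of both helicases, read between 6.02 and 8.21. DDX60, a helicase reported to assist RIG-I, read between 25.1 and 47.5. These 3 genes are interferon-induced, and none reached the floor of 52.9 on any array.

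Of the 3 measured transcription factors, IRF7 and IRF9 varied little and IRF1 more. IRF7, the factor that amplifies type I interferon production and is itself induced by it, read 1289 under miR-429 mimic against 1238 under NC mimic, and 1374 under antagomir-429 against 1202 under NC antagomir. Its 4 values lay within a log2 range of 0.19. IRF9, the DNA-binding partner of STAT2, read 682 under miR-429 mimic against 724 under NC mimic, and 793 under antagomir-429 against 733 under NC antagomir. IRF1, which responds early to interferon and to NF-kB, read 1275 under miR-429 mimic against 971 under NC mimic (0.39), and 864 under antagomir-429 against 878 under NC antagomir (-0.02). The second IRF1 probe set gave 0.72 and -0.47, so both sets were higher with the miR-429 mimic.

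The IFIT proteins bind viral RNA that lacks the host's cap modifications, or block its translation. IFIT1 read 50.9 under miR-429 mimic against 246 under NC mimic, and 155 under antagomir-429 against 154 under NC antagomir. The miR-429 mimic array alone was under the floor, so IFIT1 was at least 4.65-fold lower there than on the NC mimic array, and the NC mimic array was the highest of the 4. Its log2 ratio of -2.27 compares with a robust SD of 0.82, and no second probe set was there to set beside it. IFIT2 read 68.8 under miR-429 mimic against 97.8 under NC mimic, and 83.9 under antagomir-429 against 26.4 under NC antagomir. Only the NC antagomir array was under the floor, which makes antagomir-429 at least 1.59-fold higher, and the second IFIT2 probe set gave 72.5 and 58.6 (0.31).

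IFIT3, which binds and stabilises IFIT1, read 192 under miR-429 mimic against 140 under NC mimic, and 81.9 under antagomir-429 against 72.6 under NC antagomir. Both EpCAM-negative arrays were higher than both EpCAM-positive arrays. The second IFIT3 probe set had the same order between fractions, with 114 and 133 on the miR-429 and NC mimic arrays and 68.3 and 8.98 on the antagomir-429 and NC antagomir arrays, but turned the mimic's sign to -0.23. IFIT5, a family member that binds triphosphate RNA, read 101 under miR-429 mimic against 183 under NC mimic, and 102 under antagomir-429 against 158 under NC antagomir. Its second probe set gave 0.91 with the mimic in place of -0.85, and 0.27 with the antagomir in place of -0.63. Of the 4 IFIT genes, 3 were brightest on the NC mimic array.

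The OAS enzymes make 2′-5′ oligoadenylates from double-stranded RNA and so switch on the nuclease RNase L. OAS1 read 1493 under miR-429 mimic against 1636 under NC mimic, and 1931 under antagomir-429 against 2103 under NC antagomir. OAS3, the family's sensor of long duplexes, read 1726 under miR-429 mimic against 1413 under NC mimic, and 1901 under antagomir-429 against 2073 under NC antagomir. Both had higher signals on each EpCAM-positive array than on each EpCAM-negative one. Their reagent ratios were small, -0.13 and 0.29 for the mimic and -0.12 and -0.13 for the antagomir. The second OAS1 probe set gave -0.13 for the mimic and 0.08 for the antagomir, and the second OAS3 set -0.13 and 0.13. That OAS3 set read 151 on both control arrays, so it did not keep the order between fractions.

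OAS2 behaved differently from these relatives, at a dimmer level. It read 62.1 under miR-429 mimic against 149 under NC mimic, and 64.9 under antagomir-429 against 74.8 under NC antagomir. Again the NC mimic array was the highest, and the log2 ratio of -1.27 with the mimic compares with -0.27 when the NC antagomir array takes the place of the control. The remaining OAS2 probe sets were under the filter, and under the floor on both mimic arrays. The brighter of them reached the floor on the antagomir-429 array alone, with 94.0 against 32.9 under NC antagomir (1.51).

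OASL, an OAS-like protein without synthase activity that enhances RIG-I signalling, had log2 signals of 8.75 under miR-429 mimic against 9.31 under NC mimic, and 8.60 under antagomir-429 against 9.37 under NC antagomir. Both reagent arrays were lower than their own controls, by log2 ratios of -0.56 and -0.77 beside robust SDs of 0.46 and 0.26. The second OASL probe set gave 450 and 512 on the mimic arrays (-0.19) and 207 and 470 on the antagomir arrays (-1.19). Among the 10 members with several passing probe sets, it was the only one with all of them below -0.5 for the antagomir. EIF2AK2, the kinase PKR that halts translation on double-stranded RNA, was higher on both reagent arrays. It read 439 under miR-429 mimic against 299 under NC mimic (0.55), and 439 under antagomir-429 against 253 under NC antagomir (0.79). That probe set is also of the _x_at kind, and the next one gave smaller ratios of 0.09 and 0.30 from signals of 192, 180, 216 and 176 in the same order of arrays.

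ISG20, an interferon-induced exonuclease, read 1035 under miR-429 mimic against 1189 under NC mimic, and 770 under antagomir-429 against 903 under NC antagomir. The second ISG20 probe set gave 914 and 925, and 472 and 585. In both sets the EpCAM-positive arrays lay under the EpCAM-negative ones. MX1 and MX2, dynamin-like GTPases that trap incoming viruses and are among the most widely used markers of an interferon response, did not pass the filter. MX1 read 47.7 under miR-429 mimic against 8.15 under NC mimic, and 66.2 under antagomir-429 against 41.5 under NC antagomir. MX2 read 26.9 under miR-429 mimic against 29.3 under NC mimic, and 75.3 under antagomir-429 against 6.54 under NC antagomir. Each reached the floor on the antagomir-429 array alone, which makes MX1 at least 1.25-fold and MX2 at least 1.42-fold higher there than on the NC antagomir array.

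The ISG15 system attaches the ubiquitin-like protein ISG15 to other proteins through ligases such as HERC5 and takes it off with USP18. ISG15 read 7390 under miR-429 mimic against 8479 under NC mimic, and 4749 under antagomir-429 against 5751 under NC antagomir. Each reagent array was slightly lower than its own control, by -0.20 and -0.28, and the fractions did not overlap. USP18, which also damps the interferon receptor, read 455 under miR-429 mimic against 567 under NC mimic, and 438 under antagomir-429 against 434 under NC antagomir. HERC5 read 241 under miR-429 mimic against 143 under NC mimic (0.76, the highest mimic ratio of any member that passed), and 193 under antagomir-429 against 167 under NC antagomir (0.21). HERC6, a related ligase, lay between 96.3 and 112 on all arrays. The system as a whole had a median of -0.02 for the mimic and of 0.05 for the antagomir.

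Of the IFI genes, IFI6, a small protein of internal membranes that limits cell death and viral replication, read 3182 under miR-429 mimic against 4252 under NC mimic, and 2987 under antagomir-429 against 3264 under NC antagomir. IFI27, from the same small-protein family, read 358 under miR-429 mimic against 255 under NC mimic, and 349 under antagomir-429 against 357 under NC antagomir, so that the NC mimic array was its lowest. IFI35, a leucine-zipper protein, read 1660 under miR-429 mimic against 2353 under NC mimic, and 2053 under antagomir-429 against 2284 under NC antagomir. IFI44 and IFI44L, strongly induced by type I interferon in many cells, did not pass the filter, and by their brightest probe sets read between 10.8 and 31.3 for IFI44 and between 2.05 and 38.7 for IFI44L. At such signals a ratio has little meaning: that of IFI44L was 2.66 for the mimic and -3.74 for the antagomir without reaching the floor on any array. A second IFI44 probe set read 13.7 under miR-429 mimic against 52.9 under NC mimic, level with the floor, and 33.4 under antagomir-429 against 7.07 under NC antagomir.

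Among the other effectors, BST2, or tetherin, which holds budding viruses at the cell surface, read 9118 under miR-429 mimic against 10523 under NC mimic, and 10003 under antagomir-429 against 11537 under NC antagomir. TRIM21, a cytosolic antibody receptor and ubiquitin ligase, lay between 509 and 653, with the miR-429 mimic array lowest. PARP9, an ADP-ribosyltransferase partner of DTX3L, lay between 289 and 368. PARP14, from the same enzyme family, was above the floor only on the EpCAM-positive arrays, with 121 under antagomir-429 against 73.8 under NC antagomir against 6.82 under miR-429 mimic against 15.3 under NC mimic. Its second probe set did not repeat that order, with 77.9, 13.1, 11.5 and 67.5 on the same arrays. XAF1, an interferon-induced promoter of apoptosis, read 85.6 under miR-429 mimic against 52.7 under NC mimic, and 24.5 under antagomir-429 against 51.4 under NC antagomir by its brightest probe set, which did not pass the filter. Another XAF1 probe set had the opposite order for the mimic, 43.5 under miR-429 mimic against 96.2 under NC mimic, and read 14.8 under antagomir-429 against 85.3 under NC antagomir. A further one was under the floor on all arrays, so XAF1 has no settled direction with the mimic. SAMD9, an inhibitor of poxvirus translation, lay between 7.14 and 23.2.

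**Figure D4:**
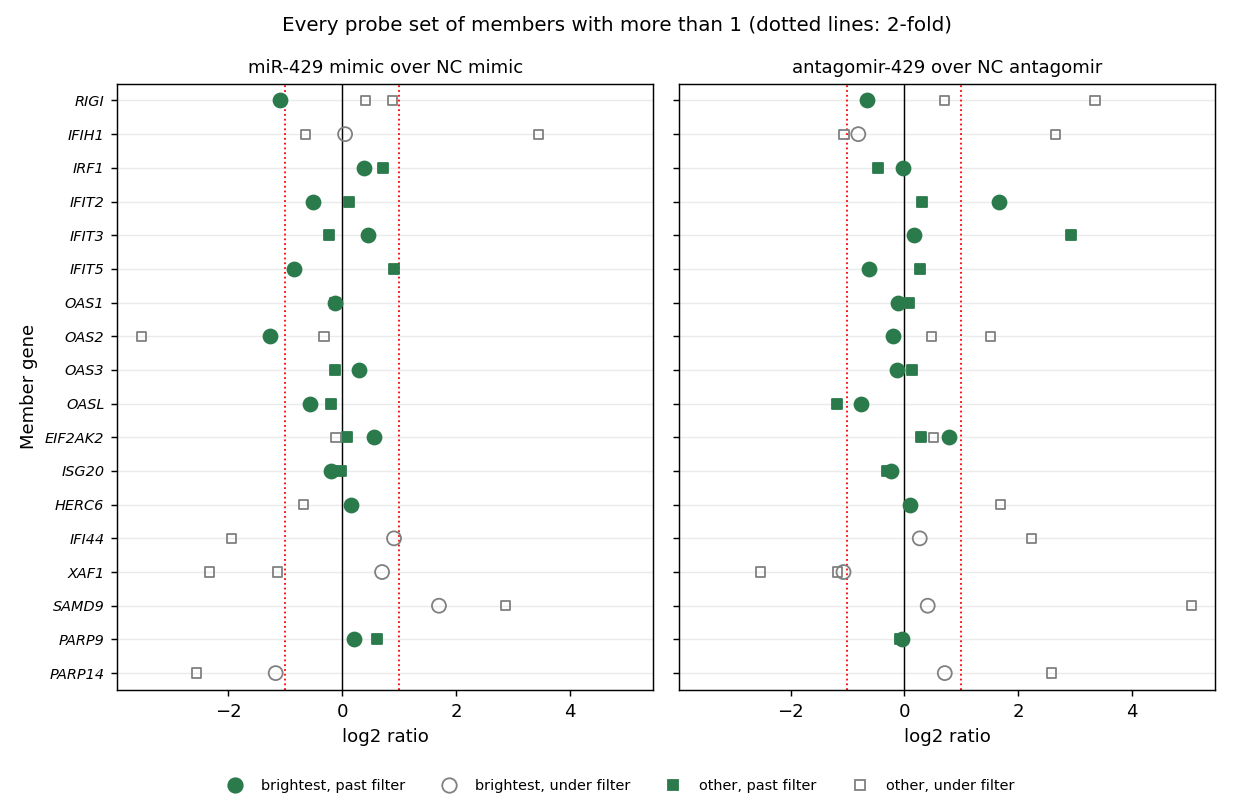
Log2 ratio (x axis) of every probe set of the members with more than 1 (y axis), for the miR-429 mimic on the left and antagomir-429 on the right, with large circles for the brightest probe set, squares for the others, filled marks for those past the filter and open marks for those under it. OASL, ISG20 and EIF2AK2 keep 1 direction over their filled marks in both panels, while IFIT5 does not, and the open marks scatter widely.

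Where members could be read by several passing probe sets, direction often depended on the choice. There were 10 such members, and all passing sets of a gene had 1 sign for 6 of them with the mimic, 7 with the antagomir and 5 between the control arrays. EIF2AK2, ISG20 and PARP9 kept 1 sign within each comparison.

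All 3 antigen-processing members were slightly lower on each reagent array than on its control. PSMB8 and PSMB9 are the catalytic subunits that replace constitutive ones in the immunoproteasome, and TAP1 carries the resulting peptides into the endoplasmic reticulum. PSMB8 read 10679 under miR-429 mimic against 14111 under NC mimic, and 12530 under antagomir-429 against 13278 under NC antagomir. PSMB9 read 9153 under miR-429 mimic against 11767 under NC mimic, and 9912 under antagomir-429 against 11189 under NC antagomir. TAP1 read 5308 under miR-429 mimic against 6904 under NC mimic, and 5674 under antagomir-429 against 5978 under NC antagomir. Their log2 ratios with the mimic lay between -0.40 and -0.36. The constitutive subunits PSMB5, PSMB6 and PSMB7, which interferon does not induce, lay between -0.35 and -0.33 in the same comparison. With the antagomir PSMB8, PSMB9 and TAP1 lay between -0.17 and -0.08, and the constitutive subunits between -0.01 and 0.08.

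The control arrays also differed from each other. With the NC antagomir array (EpCAM-positive) over the NC mimic array (EpCAM-negative), the members' median was -0.15 against -0.02 for all genes, and 18 of 27 were below 0, where 52.2% of all genes were. There 0 members were at least 2-fold higher, where 3.62% of all genes were, and the signals of 1 differed by over 2-fold downward (IFIT2, at least 1.85-fold to the floor), where 4.70% did. By their brightest probe sets all 4 IFIT genes were below 0, with a median of -0.81, and 55.8% of all genes in the dimmest class were below 0. The second passing probe sets of IFIT5 (2.38) and IFIT2 (0.37) were above 0. Taken relative to the median of genes of like brightness and span, the members' median between the controls was -0.13, with 14 of 27 below 0. This comparison of the controls shares a control array with each of the other 2.

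Taking both arrays of a fraction together, 4 members were higher on both EpCAM-positive arrays than on both EpCAM-negative ones (IRF9, OAS1, OAS3 and PARP9), where 17.2% of all genes were. A further 5 were lower on both (IRF1, IFIT3, ISG20, ISG15 and USP18), where 18.9% of all genes were. These counts of 27 are close to the share over all genes. They rest on the brightest probe sets, and the second passing sets of IRF1, OAS3 and PARP9 did not keep the order between fractions. The mean log2 signal of the EpCAM-positive arrays minus that of the EpCAM-negative arrays was -0.60 for ISG15, -1.09 for IFIT3 and -0.41 for ISG20, and 0.37 for OAS1 and 0.35 for OAS3. Interferon-stimulated genes thus lay on both sides of 0 between the fractions.

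Genes before and after the members in the pathway were read from lists of their own. Of 10 interferon genes 9 were measured and 2 passed the filter, IFNL1 and IFNL2, both type III. IFNL1 read 91.1 under miR-429 mimic against 62.1 under NC mimic, and 103 under antagomir-429 against 45.7 under NC antagomir, at least 1.95-fold higher with antagomir-429. IFNL2 read 105 under miR-429 mimic against 87.3 under NC mimic, and 105 under antagomir-429 against 70.0 under NC antagomir. IFNB1, the type I interferon that epithelial cells make first, read at most 5.80. It was among 5 of the 9 measured ligands that were under the floor on every array.

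Receptors and JAK-STAT signalling genes passed in 12 of 13 measured cases of 14 listed, with a median of 0.18 for the mimic and of 0.02 for the antagomir. JAK1, the kinase shared by the interferon receptors, read 2515 under miR-429 mimic against 1027 under NC mimic (1.29), and 1959 under antagomir-429 against 1501 under NC antagomir (0.38). IFNAR1, a chain of the type I receptor, read 200 under miR-429 mimic against 418 under NC mimic (-1.06), and 272 under antagomir-429 against 241 under NC antagomir (0.17). SOCS1, a feedback inhibitor that interferon induces, read 106 under miR-429 mimic against 155 under NC mimic, and 42.5 under antagomir-429 against 142 under NC antagomir. That made SOCS1 at least 2.69-fold lower with antagomir-429, whose array was under the floor.

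Of 21 further nucleic acid sensing genes 20 were measured and 18 passed, with a median of -0.02 for the mimic and of 0.10 for the antagomir. With the mimic 2 were at least 2-fold higher and 0 lower, where 5.25% and 3.76% of all genes were: the adaptor TRAF3, with 688 and 278 (1.31), and the endosomal sensor TLR7, with 111 and 43.4, at least 2.10-fold higher. With the antagomir 2 were past 2-fold, TLR9 (1.28, at least 2.34-fold to the floor) and STING1 (1.02), where 3.72% of all genes were higher. ADAR, an RNA-editing enzyme with an interferon-inducible form, read 3135 under miR-429 mimic against 1943 under NC mimic (0.69), and 3717 under antagomir-429 against 2754 under NC antagomir (0.43). TLR3 did not pass the filter. It read 31.0 under miR-429 mimic against 19.3 under NC mimic, and 55.7 under antagomir-429 against 56.2 under NC antagomir.

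A second list of 44 interferon-stimulated genes outside the members gave no common direction. Of 42 measured, 30 passed, with a median of 0.05 with the mimic, 18 above 0 and 12 below, and of -0.03 with the antagomir, 14 above and 16 below. With the mimic IDO1, a tryptophan-degrading enzyme, was the only one of these 30 at least 2-fold higher (178 and 78.0), where 5.25% of all genes were. The chemokine CXCL9 was the only one of the 30 whose signals differed by over 2-fold downward (27.8 and 80.6), which is at least 1.52-fold to the floor, where 3.76% of all genes did so. Among the genes that did not pass, UBE2L6 read 159 and 55.1 on the same arrays, both above the floor, or 2.89-fold higher. RSAD2, which also did not pass, read 11.6 and 69.1, at least 1.31-fold lower. With the antagomir 0 of 30 were past 2-fold, where 3.72% of all genes were higher and 3.53% lower, so few were to be found. The miR-429 mimic array was highest for 9 of these 30 genes, the NC mimic array for 8, antagomir-429 for 5 and the NC antagomir array for 8, so the lead of the NC mimic array among the members was not seen here.

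MHC class I genes outside the members numbered 16, of which 14 were measured and 13 passed. Their median was -0.34 for the mimic and -0.04 for the antagomir, and 0 were past 2-fold in either. Over all genes 5.25% were higher and 3.76% lower with the mimic, and 3.72% and 3.53% with the antagomir. In the brightest class only 0.607% of all genes were past 2-fold with the mimic and 0.0303% with the antagomir. HLA-B read 37250 under miR-429 mimic against 50291 under NC mimic (-0.43), and 41416 under antagomir-429 against 40775 under NC antagomir (0.02). HLA transcripts are alike enough to share probes, so single HLA values are uncertain. B2M, the invariant light chain, had -0.37 with the mimic, near PSMB8, PSMB9 and the constitutive proteasome subunits.

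Markers of other cells were read as a check on the cultures. Of 11 measured leukocyte markers 5 passed at dim signals, 2 were under the floor on all arrays, and the list's summed signal was 778 under miR-429 mimic against 493 under NC mimic, and 626 on both antagomir arrays; its median log2 ratio was 0.93 for the mimic. All 5 that passed were higher with the mimic, among them the T cell gene CD3E (136 and 54.8), the myeloid gene ITGAM (104 and 24.0) and the plasmacytoid dendritic cell gene LILRA4 (110 and 58.0). The pan-leukocyte gene PTPRC and another plasmacytoid dendritic cell gene CLEC4C did not pass, and PTPRC read 7.47 under miR-429 mimic and at most 35.7 on any array. Of the markers that did not pass, PTPRC (-2.23), CD14 (-1.59), CD2 (-1.31) and CLEC4C (-0.46) were lower with the mimic. They were under the floor on both mimic arrays. CD163 (0.95) and MS4A1 (2.61) were higher, so the list as measured had no common direction with the mimic. Stroma and endothelium markers summed to 8147 under miR-429 mimic against 7655 under NC mimic, and 8106 under antagomir-429 against 11017 under NC antagomir, most of it COL1A1. Of 13 measured liver line markers 6 passed. The keratins KRT8 and KRT18 were bright, while ALB, the hepatocyte product albumin, did not pass and AFP read between 91.5 and 119. The part of any of these genes in the members' values was not tested.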

How the data were processed

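Total RNA of 4 HCCLM3 samples was hybridised to 1-colour Affymetrix Human U133 Plus 2.0 arrays, 1 per sample. The deposited values are log2 signals of MAS5, per the submitters' processing notes; no version is stated in the labels, and detection calls were not used. With log2 undone, the mean trimmed by 2% at each end was 500.1 on every array, so the authors had scaled them alike, and 54.2% to 55.9% of probe sets per array reached the floor. Of 54675 probe sets, 62 controls were left out. The platform annotation names 41091 with 1 symbol and 1801 with several, which were not used; symbols were updated through Entrez identifiers with RefSeq (GRCh38.p14), whose spans gave gene lengths.

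Ratios are differences of log2 signals, counted past 2-fold, without offset. Where an array is under the floor, the fold is computed to the floor and written "at least". Nothing was tested. The members and lists were chosen with earlier results of these data known. By rule every member was named, those past 2-fold in any comparison and the 10 brightest were given on all arrays, and each other list gave at most 6 genes, by largest ratio; further genes or full values were chosen after seeing them. Alternatives were median centring, quantile normalization, a stricter and no filter, the median over probe sets, an offset of 6.0 signal units and the other control array; 2 more were added after seeing the data. The ratio and count steps were checked on made-up data. Promoter windows on opposite strands that overlap (3115 pairs) all matched as reverse complements. Python 3.11.15, pandas 2.3.3 and numpy 2.4.6 were used.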

Additional observations from a re-analysis of the deposited data

How the results depend on the processing

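Directions of the members' medians held under every alternative run, between -0.27 and -0.07 with the mimic, -0.20 and -0.05 with the antagomir and -0.18 and -0.07 between the controls. Set against genes of like brightness and span, the mimic median was -0.07, and with the NC mimic array as control the antagomir median was -0.20, with 2 members past 2-fold. The counts past 2-fold depended on dim genes. Under the stricter filter, a signal of 265.6, they were 0 of 19 in each comparison, and with no filter 7, 4 and 6 of 37 for the mimic, the antagomir and the controls. Between the controls 2 were past 2-fold with median centring, and 2 with the median over probe sets. The share of all genes past 2-fold was not computed under these settings or with the other control array. These counts of members therefore have no share of all genes to be set against. The number of members highest on the miR-429 mimic array was 3 with quantile normalization. IFIT2 with the antagomir turned to -0.22 against the NC mimic array, where it read 97.8 in place of 26.4 on the NC antagomir array; the cause was not tested. For the mimic the count stayed at 3 with the other control array, but as 2 higher and 1 lower in place of 0 and 3. RIGI did not pass the filter without probe sets ending in _x_at. No paired analysis was possible because each group has 1 array. Signal near the floor limits what the sensors, MX and IFI44 genes can show, and a response shared by all 4 arrays could not be seen without untreated cells.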
